A study of Mus musculus with 2 samples.

Results

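The mitosis genes are a list of 31 genes whose products carry a cell from the entry into mitosis to cytokinesis. They were taken by symbol from a fixed list, without a rule on measured values, but with earlier results of these data known. All 31 were found among the 32285 genes of the deposited matrices. Female C57BL/6 mice, 10 weeks old, gave the bone marrow, whose cells were cultured until day 4 in 50 ng/mL GM-CSF plus 50 ng/mL IL-6, conditions that give rise to myeloid-derived suppressor cells (MDSC). 1 culture received 1.5 μM dabrafenib (DAB), a RAF kinase inhibitor used in melanoma, and the other an equal volume of its solvent DMSO. With 1 single-cell RNA library per condition and the number of mice behind each not given in the sources used here, no test between conditions was possible, and every interval given here is a 95% interval for counting error alone.

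Mitotic genes are switched on together late in the cell cycle. Their promoters are held silent outside it by the DREAM complex, which sits on a short element called the CHR, and are activated in G2 by B-MYB and FOXM1 with the CCAAT-binding factor NF-Y. CDK1 with its cyclins then starts mitosis, the kinetochores and the spindle assembly checkpoint hold the chromosomes until each is attached, and the anaphase-promoting complex destroys cyclin B and securin so that the chromatids part. In marrow, granulocyte and monocyte progenitors divide rapidly, and neutrophils leave the cycle for good as they mature.

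After removal of barcodes with more than 10% mitochondrial UMIs and of likely doublets, 9032 DMSO cells held 92140049 unique molecular identifiers (UMIs, each counting 1 captured RNA molecule) and 10476 DAB cells held 140931857. The median cell had 7523 UMIs in DMSO and 9494 in DAB, so that levels are given as CPM, the UMIs of a gene in a total of 1000000 UMIs of the same cells, or after thinning each cell to 1500 UMIs. The 2 libraries shared 152 barcodes, 119 of them among the cells kept. The myeloid label was checked against Itgam, which encodes CD11b, and S100a8: UMIs of Itgam were found in 81.6% of cells in DMSO and 84.1% in DAB, and those of S100a8 in 82.99% and 91.3%. After thinning, erythroid markers were near 0, at 0.604 CPM summed over 6 genes in non-dividing DMSO cells and 0.637 CPM in those of DAB.

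The mitosis genes together took a smaller part of the RNA in the DAB library. They held 119674 UMIs in DMSO, 1299 CPM (1291 to 1306), and 142462 UMIs in DAB, 1011 CPM (1006 to 1016). The log2 ratio of DAB over DMSO was -0.36 (-0.37 to -0.35). Counted per cell the libraries were close, with 13.2 UMIs of these genes per DMSO cell and 13.6 per DAB cell (log2 ratio 0.037), since the average DAB cell held more UMIs of all kinds. Whether that larger total is more RNA per cell or deeper sequencing cannot be told apart.

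By single genes, a direction was read where the log2 ratio was at least 0.5 in size and its interval left out 0. Of the 31 genes, 12 were lower in DAB and 0 higher, where the same rule over 14565 genes with at least 50 UMIs called 16.9% lower and 14.1% higher. All 31 passed the minimum of 50 UMIs. The median ratio was -0.41, beside -0.017 over all genes tested, and 29 of the 31 ratios were below 0. None of the 31 passed 0.5 in either direction when taken per cell, and 13 then lay above 0.

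**Figure D1:**
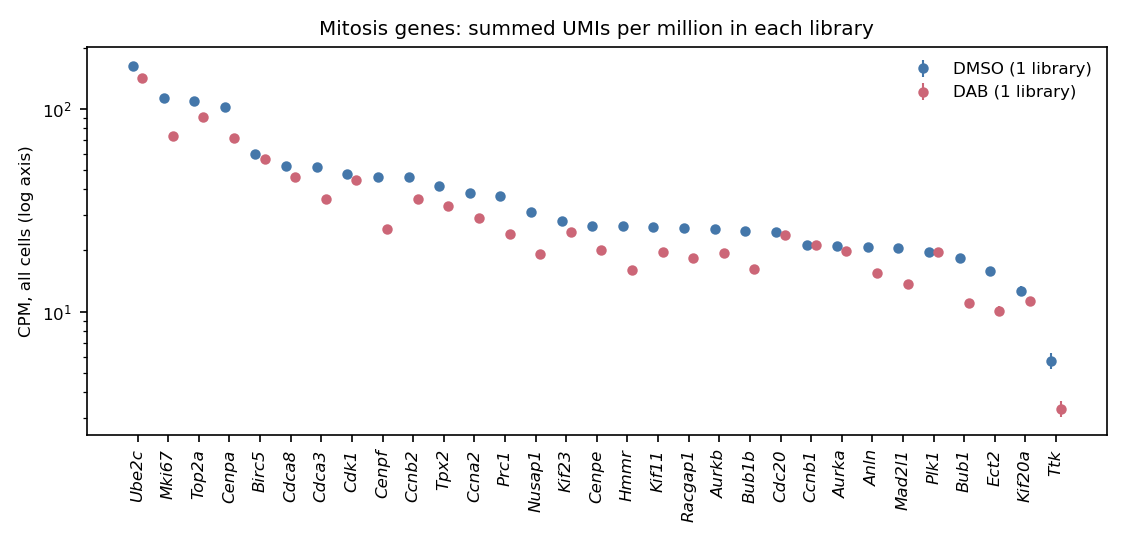
Level of each mitosis gene in both libraries, as CPM of UMIs summed over all kept cells on a log axis, ordered by the DMSO level, with bars for 95% Poisson intervals that are mostly smaller than the points. The DAB points lie below the DMSO points for 29 genes and level with them for Ccnb1 and Plk1.

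The largest differences lay at the kinetochore, the protein plate by which a chromosome holds its microtubules, and in its checkpoint. This group of 7 summed to 243 CPM in DMSO and 161 CPM in DAB (log2 ratio -0.59, -0.62 to -0.57), and 6 of its 7 genes were called lower. Cenpf, a large protein of the outer kinetochore, had 45.8 CPM in DMSO and 25.4 CPM in DAB (-0.85, -0.92 to -0.79), the lowest ratio of the 31. Ttk, the kinase also called MPS1 that starts the checkpoint, had the fewest UMIs of the list, with 5.71 CPM in DMSO and 3.31 CPM in DAB (-0.78, -0.97 to -0.60). The checkpoint kinase Bub1 had 18.4 CPM in DMSO and 10.96 CPM in DAB (-0.75, -0.85 to -0.64). Its relative Bub1b, which encodes BUBR1, a part of the complex that inhibits CDC20, had 24.9 CPM in DMSO and 16.2 CPM in DAB (-0.62, -0.70 to -0.54). Mad2l1, whose product MAD2 belongs to that same inhibitory complex, had 20.5 CPM in DMSO and 13.7 CPM in DAB (-0.58, -0.67 to -0.49). These 5 genes thus all stood below their DMSO level by more than their counting error. Cenpa, the histone H3 variant that marks the centromere, had 101 CPM in DMSO and 71.7 CPM in DAB, with a ratio just past the threshold (-0.50, -0.54 to -0.46), and it was also the member least restricted to dividing cells, as described below. The kinetochore motor Cenpe had 26.5 CPM in DMSO and 20.003 CPM in DAB and did not reach the threshold (-0.40, -0.48 to -0.32).

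Among the genes at the other end were Plk1, Aurka and Birc5, and Cdc20, the target of that checkpoint. The Polo and Aurora kinases with the chromosomal passenger complex, 5 genes, summed to 178 CPM in DMSO and 162 CPM in DAB (log2 ratio -0.14), with 0 called in either direction. Plk1, the Polo kinase that acts from mitotic entry to cytokinesis, had 19.6 CPM in DMSO and 19.7 CPM in DAB (0.00, -0.084 to 0.088). Aurka, the Aurora kinase of the spindle poles, had 20.9 CPM in DMSO and 19.97 CPM in DAB (-0.068, -0.15 to 0.017). Both intervals held 0. Within the passenger complex, the kinase Aurkb had 25.6 CPM in DMSO and 19.3 CPM in DAB (-0.40, -0.48 to -0.32). Birc5, which encodes survivin, the subunit that brings the complex to centromeres, had 59.9 CPM in DMSO and 56.7 CPM in DAB (-0.079, -0.13 to -0.030), and Cdca8, which encodes the subunit borealin, had 51.96 CPM in DMSO and 46.2 CPM in DAB (-0.17, -0.22 to -0.12). Within this complex, then, the interval of Aurkb lay wholly below those of Birc5 and Cdca8.

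CDK1 and its regulators were spread between these ends. Cdk1, the kinase that drives the entry into mitosis, had 47.4 CPM in DMSO and 44.6 CPM in DAB (-0.091, -0.15 to -0.034). Ccnb1, cyclin B1, had 21.2 CPM in DMSO and 21.4 CPM in DAB (0.011, -0.071 to 0.094), the highest ratio of the list. The related cyclin Ccnb2 had 45.8 CPM in DMSO and 35.8 CPM in DAB (-0.35, -0.41 to -0.30), below the interval of Ccnb1. Ccna2, cyclin A2, which serves S phase and G2, had 38.3 CPM in DMSO and 28.8 CPM in DAB (-0.41, -0.47 to -0.34). Only Cdca3 of these 5 was called lower: this gene, whose product helps degrade the mitotic inhibitor WEE1, had 51.6 CPM in DMSO and 35.7 CPM in DAB (-0.53, -0.59 to -0.47).

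Of the 2 genes that act on chromosomes, Mki67, which encodes the proliferation marker Ki-67 that coats mitotic chromosomes, was called lower, at 112 CPM in DMSO and 73.5 CPM in DAB (-0.61, -0.65 to -0.57). Top2a, the topoisomerase that untangles sister DNA, had 109 CPM in DMSO and 91.1 CPM in DAB (-0.26, -0.29 to -0.22) and did not reach the threshold. The anaphase-promoting complex was represented by its activator Cdc20, with 24.5 CPM in DMSO and 23.9 CPM in DAB (-0.041, -0.12 to 0.037), and its ubiquitin-conjugating enzyme Ube2c, with 162 CPM in DMSO and 141 CPM in DAB (-0.20, -0.23 to -0.17). Ube2c had more UMIs than any other member in both libraries and alone made up 12.5% of the summed UMIs in DMSO and 13.9% in DAB. Without it, the ratio of the sum was -0.39.

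Among the spindle genes, Hmmr, whose product binds spindle microtubules, was called lower at 26.4 CPM in DMSO and 16.04 CPM in DAB (-0.72, -0.80 to -0.64). So was Nusap1, which encodes a microtubule-stabilising protein, at 30.96 CPM in DMSO and 19.2 CPM in DAB (-0.69, -0.77 to -0.61). Kif11, the motor that pushes the spindle poles apart, had 26.2 CPM in DMSO and 19.7 CPM in DAB (-0.41, -0.49 to -0.33), and Tpx2, which encodes the activator of Aurora A, had 41.8 CPM in DMSO and 33.01 CPM in DAB (-0.34, -0.40 to -0.28). These last 2 did not reach the threshold.

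The 6 genes of the central spindle and of cytokinesis were likewise divided. Prc1, which encodes the protein that bundles microtubules midway between the poles, was called lower at 37.02 CPM in DMSO and 23.98 CPM in DAB (-0.63, -0.70 to -0.56). Ect2, the activator of RHOA at the cleavage furrow, was called lower at 15.8 CPM in DMSO and 10.1 CPM in DAB (-0.65, -0.76 to -0.55). The motor Kif23 and its partner Racgap1, which form centralspindlin, had intervals that did not overlap: Kif23 had 27.8 CPM in DMSO and 24.8 CPM in DAB (-0.17, -0.24 to -0.095), while Racgap1 had 25.9 CPM in DMSO and 18.4 CPM in DAB (-0.49, -0.58 to -0.41). Anln, which encodes the ring scaffold anillin, had 20.9 CPM in DMSO and 15.4 CPM in DAB (-0.44, -0.53 to -0.35), and the motor Kif20a had 12.7 CPM in DMSO and 11.3 CPM in DAB (-0.17, -0.28 to -0.058). The ratios of the 31 genes went, as a description across genes, with the span of the gene in the GENCODE annotation (Spearman rho -0.49 over 31 genes, against -0.077 over 14553 genes), and all the points share the same 2 libraries. Ccnb1, with the highest ratio, spans 7921 bases (GRCm38 chr13:100778650-100786570), and Cenpf, with the lowest, spans 47481 (chr1:189640606-189688086). Other members departed from this: Cdca3 spans 4155 bases at a ratio of -0.53, and Tpx2 spans 47358 at -0.34.

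**Figure D2:**
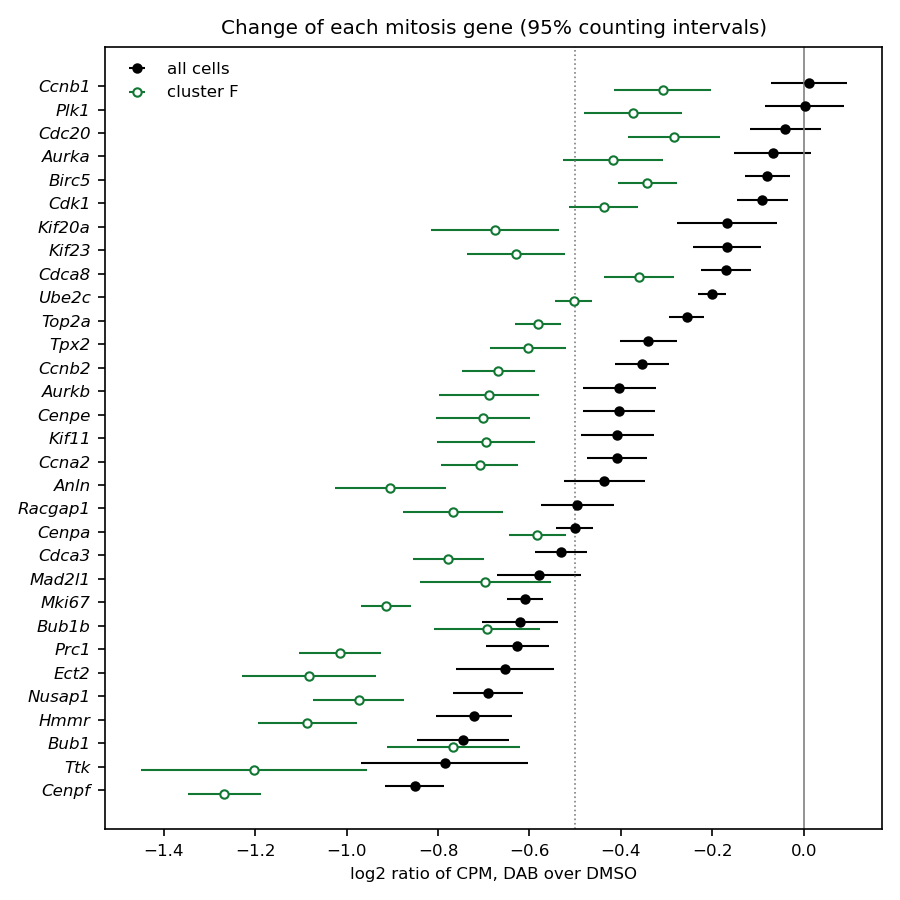
Log2 ratio of CPM, DAB over DMSO, for each mitosis gene over all cells (filled) and within cluster F, the cluster richest in these genes (open), with 95% counting intervals and a dotted line at the threshold. Over all cells the genes run from -0.85 for Cenpf to 0.01 for Ccnb1, and in cluster F every gene lies below 0.

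Whether these genes are a programme of dividing cells here was checked by co-occurrence after thinning. In DMSO, cells with a UMI of a given member held on average 5.17 to 12.97 UMIs of the other 30, against 0.543 to 1.16 in cells without it. In DAB the ranges were 3.85 to 9.06 and 0.384 to 0.777. By these means, every member went with the others in both libraries. The tightest was Cenpf in DMSO, where 95.8% of the 238 cells with a UMI had at least 3 UMIs of the others, and Plk1 in DAB, with 89.3% of 121. Cenpa was the loosest, with 43.4% of 800 in DMSO and 41.6% of 596 in DAB. Mad2l1 followed with 47.2% of 218 in DMSO and 44% of 125 in DAB. Kif23 had 68.4% of 225 in DMSO and 49.0% of 192 in DAB.

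A cell was called dividing when it had at least 3 UMIs of the 31 genes after thinning. By this count 874 of 8596 DMSO cells met it, 10.2% (9.54 to 10.8), and 763 of 10184 DAB cells, 7.49% (6.99 to 8.02), and the intervals did not overlap. Cells under 1500 UMIs, 436 in DMSO and 292 in DAB, were left out. The list acts late in the cycle, so that cells in S phase can fall short of this count. The share is therefore not that of all cycling cells, and the replication genes are described below. Without thinning, 30.5% of DMSO and 23.3% of DAB cells had 3 UMIs. The background was read from mature PMN-like cells, which are post-mitotic: 2 of 540 in DMSO (0.370%) and 8 of 1524 in DAB (0.525%) met the same count, at median depths of 2731 and 3282 UMIs. Both libraries were therefore far above it. Just at the threshold lay 112 DMSO and 91 DAB cells with 3 UMIs, and just under it 305 and 252 cells with 2.

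After thinning, the relative difference was larger at the highest sums. The share of cells with at least 5 UMIs was 7.97% (7.40 to 8.56) in DMSO and 5.73% (5.29 to 6.20) in DAB, and that with at least 10 was 4.63% (4.20 to 5.10) and 2.76% (2.45 to 3.10). The highest cell held 30 in DMSO and 23 in DAB. A dividing cell thinned in this way carried UMIs of 7.32 of the 31 genes on average in DMSO and of 6.34 in DAB. Without thinning, 20.6% of DMSO and 15.9% of DAB cells had at least 5 UMIs. At least 10 were then held by 12.8% and 10.8%, a smaller relative difference. Unthinned, a dividing cell held 117 UMIs of the list on average in DMSO and 157 in DAB. The dividing cells held 85.6% of all UMIs of the list in DMSO and 84.2% in DAB, at 6665 and 5479.6 CPM against 223 and 189 CPM in the other cells. Since the list itself chose these cells, those levels are a description.

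**Figure D3:**
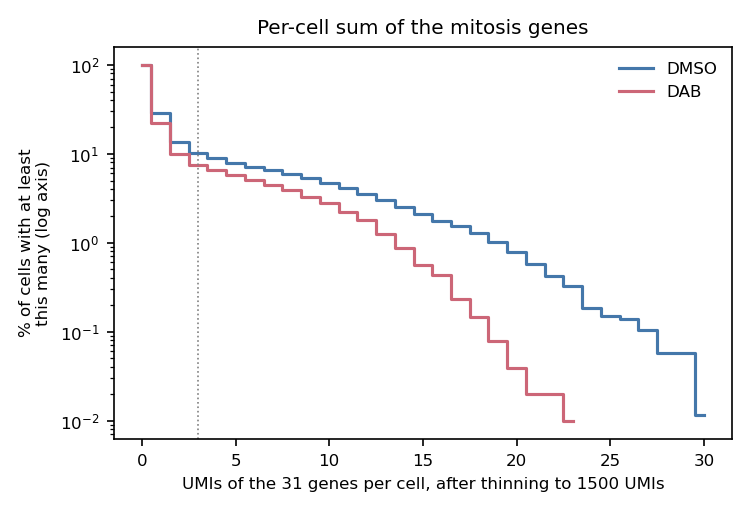
Share of cells, on a log axis, with at least a given number of UMIs of the 31 mitosis genes after every cell was thinned to 1500 UMIs, with a dotted line at the 3 UMIs that define a dividing cell. The DAB curve lies below the DMSO curve from 1 UMI onward and ends at 23 UMIs, while the DMSO curve reaches 30.

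Dividing cells also held more UMIs of all kinds than the other cells. Their median total was 16658 UMIs against 7364 in the other DMSO cells, and 28222 against 9046 in DAB. Within bands of total UMIs, inside which depth was not matched, the share of dividing cells was lower in DAB: 3.57% (2.88 to 4.36) in DMSO and 0.945% (0.629 to 1.36) in DAB from 1500 to 5000 UMIs, 4.53% (3.75 to 5.42) and 2.54% (1.92 to 3.29) from 5000 to 10000, 14.4% (12.97 to 15.9) and 5.07% (4.24 to 6.01) from 10000 to 20000, and 27.9% (25.4 to 30.6) and 21.5% (19.96 to 23.2) from 20000 upward. In none of these bands did the intervals overlap.

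The genes of DNA replication did not follow the mitosis genes. Their 38 genes, which act in the S phase that precedes mitosis, summed to 693 CPM in DMSO and 817 CPM in DAB. Their median ratio was 0.14 against -0.41 for the mitosis genes, and 5 were called higher and 0 lower, beside the 14.1% and 16.9% of all genes given above. The 5 called higher lay near the share of all genes, and they are named as a description. The nucleotide enzymes Dut and Tyms were among them: Dut had 62.4 CPM in DMSO and 107 CPM in DAB (log2 ratio 0.78, 0.74 to 0.82), and Tyms had 17.2 CPM in DMSO and 27.9 CPM in DAB (log2 ratio 0.70, 0.62 to 0.78). Mcm2, a subunit of the replicative helicase, had 11.3 CPM in DMSO and 20.9 CPM in DAB (log2 ratio 0.89, 0.79 to 0.998), and its partner Mcm5 had 19.7 CPM in DMSO and 30.2 CPM in DAB (log2 ratio 0.62, 0.54 to 0.70). The flap nuclease Fen1 had 17.1 CPM in DMSO and 24.7 CPM in DAB (log2 ratio 0.53, 0.45 to 0.62). Cell by cell the same shift was seen. Cells with at least 3 thinned UMIs of the replication genes but fewer than 3 of the mitosis genes were 3.21% in DMSO (2.85 to 3.61) and 5.04% in DAB (4.62 to 5.48). Cells with 3 of the mitosis genes but not of the replication genes were 5.60% (5.12 to 6.10) and 3.80% (3.44 to 4.19). The first class was thus larger in DAB and the second smaller. Cells with both were 4.57% (4.14 to 5.03) in DMSO and 3.69% (3.33 to 4.08) in DAB. Both lists hold few genes and few UMIs per thinned cell, so that a cell below 3 UMIs is not shown to lack either programme. Replication genes also had a background in mature PMN-like cells, which are post-mitotic. Those cells averaged 0.476 thinned UMIs of the replication genes in DMSO and 0.558 in DAB. The part of this background in the first class was not tested.

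The members could be ordered by the replication RNA that went with each, relative to the RNA of the other members. In cells with a UMI of a member, UMIs of the 38 replication genes were counted per UMI of the other 30 members. In DMSO this ran from 0.19 for Cdc20 through 0.21 for Cenpf and 0.21 for Plk1 to 0.35 for Mki67, 0.39 for Mad2l1 and 0.41 for Ttk. In DAB it ran from 0.25 for Ccnb1 to 0.73 for Ttk, and the order was similar (Spearman rho 0.83 across 31 genes). The 5 members Cdc20, Cenpf, Plk1, Ccnb1 and Ccnb2 were among the lowest 6 in both libraries, and Top2a, Mki67, Mad2l1 and Ttk among the highest 6 in both. Every member stood higher in DAB than in DMSO on this measure, and neighbours in the order were not tested against each other. The measure is a quotient, so fewer UMIs of the other members raise it as well. In cells with a UMI of Ccnb1, for example, the others averaged 12.4 UMIs in DMSO and 9.06 in DAB. The order is therefore not one of the amount of replication RNA per cell.

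Among the other lists of the cycle, 75 further mitosis genes were counted: 27 were called lower and 0 higher, beside 16.9% and 14.1% of all genes, with a median ratio of -0.36. The condensin subunit Smc4 had 151 CPM in DMSO and 78.95 CPM in DAB (log2 ratio -0.94, -0.97 to -0.90), and Ncapd2, of condensin I, had 30.996 CPM in DMSO and 19.8 CPM in DAB (log2 ratio -0.65, -0.72 to -0.57). Cdc25b, the phosphatase that switches on CDK1, had 26.5 CPM in DMSO and 14.1 CPM in DAB (log2 ratio -0.91, -1.0 to -0.83). Cks2, which encodes a small CDK-binding protein, had 146 CPM in DMSO and 101 CPM in DAB (log2 ratio -0.52, -0.56 to -0.49). The spindle gene Ckap2l had 20.4 CPM in DMSO and 12.3 CPM in DAB (log2 ratio -0.72, -0.82 to -0.63), and Ncapg2, a subunit of condensin II, had 16.01 CPM in DMSO and 10.3 CPM in DAB (log2 ratio -0.63, -0.74 to -0.53). In contrast, 0 of 15 genes of the anaphase-promoting complex were called in either direction (median -0.016). The list held subunits, which are needed outside mitosis as well, and the ubiquitin-conjugating enzyme Ube2s. After thinning, that enzyme stood at 730 CPM in dividing cells against 107 in the others in DMSO, and at 641 against 123 CPM in DAB.

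The 21 regulators of mitotic transcription were called in both directions, 6 lower and 4 higher, beside 16.9% lower and 14.1% higher among all genes, and the counts are given as a description. Foxm1, which is itself transcribed mainly in G2, had 5.86 CPM in DMSO and 3.72 CPM in DAB (log2 ratio -0.66, -0.83 to -0.48), and Rb1, the retinoblastoma repressor, had 81.9 CPM in DMSO and 42.1 CPM in DAB (log2 ratio -0.96, -1.01 to -0.91). Its relative Rbl2, a subunit of DREAM, had 30.8 CPM in DMSO and 19.995 CPM in DAB (log2 ratio -0.62, -0.70 to -0.55), and the DREAM core subunit Lin37 had 25.4 CPM in DMSO and 17.96 CPM in DAB (log2 ratio -0.50, -0.58 to -0.42). The genes called higher were the repressive E2F E2f4, with 34.4 CPM in DMSO and 54.7 CPM in DAB (log2 ratio 0.67, 0.61 to 0.73), its dimer partner Tfdp1, with 28.7 CPM in DMSO and 42.4 CPM in DAB (log2 ratio 0.56, 0.50 to 0.63), the proliferation factor Myc, with 45.8 CPM in DMSO and 79.6 CPM in DAB (log2 ratio 0.80, 0.75 to 0.85), and the NF-Y subunit Nfyc, with 13.1 CPM in DMSO and 19.2 CPM in DAB (log2 ratio 0.55, 0.45 to 0.65). Mybl2, which encodes B-MYB, had 7.52 CPM in DMSO and 9.97 CPM in DAB (log2 ratio 0.41, 0.27 to 0.54) and did not reach the threshold.

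Of 18 CDK inhibitors and genes of cell cycle exit, 9 were called lower and 1 higher (median -0.52), beside 16.9% lower and 14.1% higher among all genes. Cdkn1b, which encodes the CDK inhibitor p27, had 66.1 CPM in DMSO and 44.8 CPM in DAB (log2 ratio -0.56, -0.61 to -0.51), and Cdkn2d, which encodes p19INK4d, had 92.01 CPM in DMSO and 62.3 CPM in DAB (log2 ratio -0.56, -0.61 to -0.52). The antiproliferative gene Btg1 had 283 CPM in DMSO and 191 CPM in DAB (log2 ratio -0.57, -0.59 to -0.54). Ccng2, an atypical cyclin of arrested cells, had 54.97 CPM in DMSO and 25.5 CPM in DAB (log2 ratio -1.11, -1.17 to -1.05), and the stress gene Gadd45b had 65.04 CPM in DMSO and 25.8 CPM in DAB (log2 ratio -1.33, -1.39 to -1.27). Tob1, of the same antiproliferative family as Btg1, had 25.1 CPM in DMSO and 15.04 CPM in DAB (log2 ratio -0.74, -0.83 to -0.65). The 1 gene called higher was Cdkn1c, which encodes the CDK inhibitor p57, from a low level, with 0.260 CPM in DMSO and 1.05 CPM in DAB (log2 ratio 2.01, 1.38 to 2.70). Cdkn1a, which encodes p21, was level at 609.6 CPM in DMSO and 627 CPM in DAB (log2 ratio 0.040, 0.024 to 0.055). The medians of the mitosis genes and of these exit genes thus lay on the same side of 0.

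**Figure D4:**
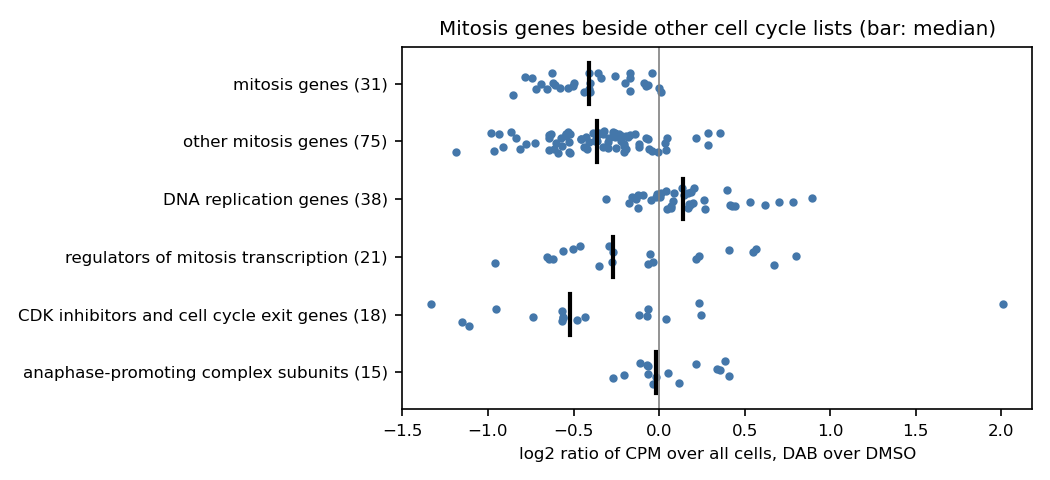
Log2 ratio of CPM over all cells, DAB over DMSO, for each gene of the mitosis list and of 5 other cell cycle lists, with the number of genes in brackets, a bar at each median and vertical scatter only for visibility. The mitosis genes and the other mitosis genes have medians of -0.41 and -0.36, and the DNA replication genes one of 0.14.

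The 10 genes outside the list whose pattern was most like it were chosen by the ratio of their thinned CPM in dividing cells to that in cells with no UMI of the 31, taking the lower of the 2 libraries, with 1 UMI added to each sum. They were Kif2c, Nuf2, Kif18b, Parpbp, Cdc25c, Depdc1a, Kif20b, Kif4, Ankle1 and Knl1, from 10569 genes with at least 200 UMIs in each library. The log2 ratio was 7.80 in DMSO and 7.63 in DAB for Kif2c, a microtubule-depolymerising motor at centromeres, and 7.61 in DMSO and 7.55 in DAB for Nuf2, a kinetochore subunit. Of the 10, 8 were in the list of other mitosis genes and 2, Parpbp and Ankle1, were in none of the lists used here.

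The promoters of the members were read for the elements named above. RefSeq promoter windows on GRCm38.p6, the patch release of the mm10 assembly, matched 27 of the 31 genes, and Ccna2, Aurkb, Tpx2 and Kif20a had no entry. CCAAT, on either strand, was present in the 250 bases upstream of the start in 23 of 27 members (85.2%), against 34.5% of 27025 promoters, and at least 2 times in 16 (59.3%, against 10.5%). A CHR form, TTTGAA or TTTAAA on either strand, was present upstream in 13 (48.1%, against 25.5%). When the first 50 bases past the start were added, 24 members held one (88.9%, against 27.8%), and 22 held both elements (81.5%, against 10.9%). These are matches of letters, and binding was not measured. The 250 upstream bases are shown for the 3 matched genes with the lowest ratios and then the 3 with the highest, 5′ to 3′ on the strand of the gene, with CCAAT or its reverse ATTGG and the CHR forms in capitals.
Cenpf (chr1:189688087-189688336, minus strand): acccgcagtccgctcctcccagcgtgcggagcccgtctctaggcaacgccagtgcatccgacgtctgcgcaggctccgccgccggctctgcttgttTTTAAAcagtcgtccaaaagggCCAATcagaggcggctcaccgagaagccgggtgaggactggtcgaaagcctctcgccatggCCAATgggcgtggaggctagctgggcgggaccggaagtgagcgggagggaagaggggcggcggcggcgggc
Ttk (chr9:83834439-83834688, plus strand): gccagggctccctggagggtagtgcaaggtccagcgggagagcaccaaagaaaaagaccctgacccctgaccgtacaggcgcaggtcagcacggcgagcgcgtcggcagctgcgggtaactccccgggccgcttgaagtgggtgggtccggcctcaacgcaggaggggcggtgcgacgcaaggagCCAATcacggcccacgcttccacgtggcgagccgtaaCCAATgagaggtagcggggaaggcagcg
Bub1 (chr2:127831860-127832109, minus strand): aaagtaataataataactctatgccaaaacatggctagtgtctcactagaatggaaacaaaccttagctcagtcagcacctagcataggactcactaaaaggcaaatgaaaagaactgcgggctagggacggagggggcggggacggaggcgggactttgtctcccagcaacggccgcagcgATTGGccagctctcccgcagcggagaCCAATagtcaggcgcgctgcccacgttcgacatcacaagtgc
Cdc20 (chr4:118437344-118437593, minus strand): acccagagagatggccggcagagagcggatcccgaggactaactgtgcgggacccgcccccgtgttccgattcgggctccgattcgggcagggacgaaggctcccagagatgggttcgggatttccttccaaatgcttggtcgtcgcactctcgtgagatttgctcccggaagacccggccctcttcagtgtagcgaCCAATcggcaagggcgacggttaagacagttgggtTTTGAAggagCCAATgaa
Plk1 (chr7:122159185-122159434, plus strand): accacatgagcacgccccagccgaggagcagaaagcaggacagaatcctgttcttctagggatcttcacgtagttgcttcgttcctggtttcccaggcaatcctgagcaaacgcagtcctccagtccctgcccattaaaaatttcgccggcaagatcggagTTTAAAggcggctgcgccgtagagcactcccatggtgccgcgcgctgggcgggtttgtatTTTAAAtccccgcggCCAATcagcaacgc
Ccnb1 (chr13:100786487-100786736, minus strand): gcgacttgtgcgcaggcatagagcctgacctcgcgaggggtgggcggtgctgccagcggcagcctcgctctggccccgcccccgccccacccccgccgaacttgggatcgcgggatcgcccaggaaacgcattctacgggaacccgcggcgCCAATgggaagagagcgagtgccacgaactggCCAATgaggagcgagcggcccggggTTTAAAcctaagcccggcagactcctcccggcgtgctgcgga
All 6 windows held CCAAT. The CHR forms stood upstream in Cenpf and in the 3 genes with the highest ratios, at 42 bases before the start in Ccnb1 and 18 in Cdc20. Ttk and Bub1 had none in these 250 bases.

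To see which cells carried the programme, the cells were clustered with the members, the other mitosis genes and the replication genes left out. Cell cycle genes outside these lists, such as Pclaf, stayed eligible for the clustering. Of the 30 genes most like the members, 12 were in none of the lists. A cluster could therefore still form by cell cycle stage, and its level of the mitosis genes is then a description. This gave 25 clusters, lettered A to Y by size, of which 13 could be named from marker lists. 4 of the 15 marker lists, those of plasmacytoid dendritic, T or NK, erythroid and early progenitor cells, named none. In each of 20 clusters both libraries had 100 cells or more, and among these the summed mitosis genes, as CPM, were called lower in DAB in 13, higher in 2 and neither in 5. The limit of 100 cells was chosen with the clusters known, and only 3 classes reached the 200 cells planned. A cluster held mostly by 1 library may reflect that library and not a cell type.

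The mitosis genes were concentrated in cluster F, which had 533 DMSO and 710 DAB cells. It was led by Ube2c, Top2a, Birc5 and Cenpf with Pclaf and H2afx, it matched no lineage list, and it stays unnamed. The 31 genes stood there at 5871 CPM in DMSO (5826 to 5916) and 3746 CPM in DAB (3720.4 to 3772), a log2 ratio of -0.65 (-0.66 to -0.63). The median depth in F was 20180 UMIs in DMSO and 28824 in DAB. Counted per cell the libraries were closer, with 122 UMIs of the list in DMSO and 114 in DAB. Cluster F held 54.3% of the UMIs of the list in DMSO and 56.8% in DAB, with 5.90% and 6.78% of the cells. Dividing cells were 376 of 530 in DMSO (70.9%, 66.9 to 74.8) and 402 of 705 in DAB (57.02%, 53.3 to 60.7). DAB thus had the larger share of its cells in F and the smaller share of them at 3 UMIs or more.

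Within cluster F all 31 ratios of CPM were below 0, and 24 genes were called lower and 0 higher, where 19.0% of 11081 genes were called lower and 14.3% higher. Cenpf went from 254 to 105 CPM in cluster F (log2 ratio -1.27, -1.35 to -1.19), and Mki67 went from 469 to 249 CPM in cluster F (log2 ratio -0.91, -0.97 to -0.86). Ccnb1 went from 108 to 87.002 CPM in cluster F (log2 ratio -0.31, -0.41 to -0.20). The 6 members within 0.1 of 0 over all cells, Cdk1, Birc5, Aurka, Cdc20, Plk1 and Ccnb1, ran from -0.44 to -0.28 in F, and the other 25 from -1.27 to -0.36. The order over all cells and that in F come from the same 2 libraries, and F holds over 50% of the UMIs, so that they are not independent.

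The cells of cluster F fell under more than 1 name when S and G2M scores were regressed out before clustering. The S score drew on the replication genes and the G2M score on the mitosis genes measured here. Signal of the measured genes was thus taken out before clustering, and the ratios by class from these clusters are not an independent check. In that setting 48 cell cycle genes were among the clustering genes. It still gave an unnamed cluster led by Ube2c, Cenpf and Top2a, with 238 DMSO and 277 DAB cells. Of the cells of F, 131 of 533 in DMSO and 170 of 710 in DAB fell in clusters named granulocyte progenitor-like. Immature monocyte-like clusters took 40 and 1, and unnamed ones, among them the Ube2c-led cluster, 343 and 508. Of the clusters named granulocyte progenitor-like, that with 182 DMSO and 110 DAB cells was led by Elane, Mpo and Prtn3. Another, with 207 and 294 cells, was led by H2-Q10, Myl10 and Thy1. It had 3 of 5 progenitor markers raised, and only Prtn3 among its 10 leading genes. How the cells of F were split between them was not counted. Marker levels in dividing and other cells were taken after thinning, so that every cell weighed the same. Over all dividing cells, granulocyte progenitor markers (Elane, Mpo, Prtn3, Ctsg and Ms4a3 summed, most of them genes of primary granules) stood at 949.7 CPM against 152 in the other cells in DMSO, and at 791 against 94.6 CPM in DAB. Basophil or mast cell markers were also higher in dividing cells, at 431 against 104 CPM in DMSO and 564 against 161 CPM in DAB. So were early progenitor markers, from low levels, at 46.5 against 31.1 CPM in DMSO and 95.2 against 59.02 CPM in DAB. Mature PMN markers went the other way, at 951 against 2685 CPM in DMSO and 1242 against 3529 CPM in DAB. Immature monocyte markers differed between the libraries, at 3545 against 3438 CPM in DMSO and 2239 against 4100.4 CPM in DAB. Intermediate granulocyte markers stood at 12486 against 15066 CPM in DMSO and 7124 against 6806 CPM in DAB. The remaining lists are not described here.

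Among the named granulocyte clusters the levels were highest in the progenitor-like and intermediate ones. Cluster U, granulocyte progenitor-like and led by Elane, Mpo and Prtn3, had 189 DMSO and 125 DAB cells and stood at 3624 CPM in DMSO (3548 to 3702) and 2481 CPM in DAB (2422 to 2542), a ratio of -0.55 (-0.59 to -0.50). The median depth in U was 10917 UMIs in DMSO and 22874 in DAB. Counted per cell the direction was the opposite, with 45.2 UMIs of the list in DMSO and 53.3 in DAB. In U, 17 of the 31 genes were called lower and 0 higher, where 16.5% of all genes were called lower and 16.8% higher. Dividing cells were 61 of 177 in DMSO (34.5%, 27.5 to 41.96) and 36 of 122 in DAB (29.5%, 21.6 to 38.4), and these intervals overlap. Over 8 settings of filter and clustering the ratio of this class ran from -0.94 to -0.34.

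Cluster H, intermediate granulocyte-like and led by the secondary granule genes Camp, Ltf and Ngp, had 842 DMSO and 189 DAB cells and stood at 1619 CPM in DMSO (1588 to 1651) and 2481 CPM in DAB (2421 to 2542), higher in DAB by 0.62 (0.57 to 0.66). In H, 24 of the 31 genes were called higher and 0 lower, where 23.0% of all genes were called higher and 12.8% lower. Dividing cells were 107 of 814 in DMSO (13.1%, 10.9 to 15.7) and 46 of 188 in DAB (24.5%, 18.5 to 31.3). The depth also differed, with a median of 6938 UMIs in DMSO and 12705 in DAB, and its part in the result was not tested. The direction did not hold in every setting: over 8 settings the ratio of this class ran from -0.42 to 0.62. It was -0.049 without the cell filter, -0.42 when genes that differ between the libraries were left out of the clustering, and 0.52 with cell cycle scores regressed out.

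The other named granulocyte classes had low levels. Mature PMN-like cells (clusters D and J) stood at 163 CPM in DMSO (145 to 181) and 132 CPM in DAB (123 to 142), and chemokine-high granulocyte-like cells (C and M) at 133 CPM in DMSO (118 to 149) and 74.2 CPM in DAB (69.7 to 78.9), with 5 of 339 and 1 of 1715 cells dividing. The log2 ratios were -0.30 and -0.84. The 2 clusters of the mature PMN-like class had different shares of it in each library: D had 426 DMSO and 838 DAB cells and a ratio of -0.29 (-0.53 to -0.058), and J had 183 DMSO and 762 DAB cells and a ratio of 0.028 (-0.31 to 0.38). With doublets kept, the ratio of the class was 0.038, and with cell cycle scores regressed out, the ratio of chemokine-high cells was -2.65. UMIs that remained in mature PMN-like cells had a makeup only partly like that of dividing cells (Spearman rho across the 31 genes 0.35 in DMSO and 0.60 in DAB). The makeup of mature PMN-like cells rests on 324 UMIs in DMSO and 790 in DAB, and the part of counting error in these values was not tested. Cenpa was the member most often seen there, with a thinned UMI in 5.56% of these cells in DMSO and 4.72% in DAB. Free RNA can also give such UMIs, and its part was not tested.

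**Figure D5:**
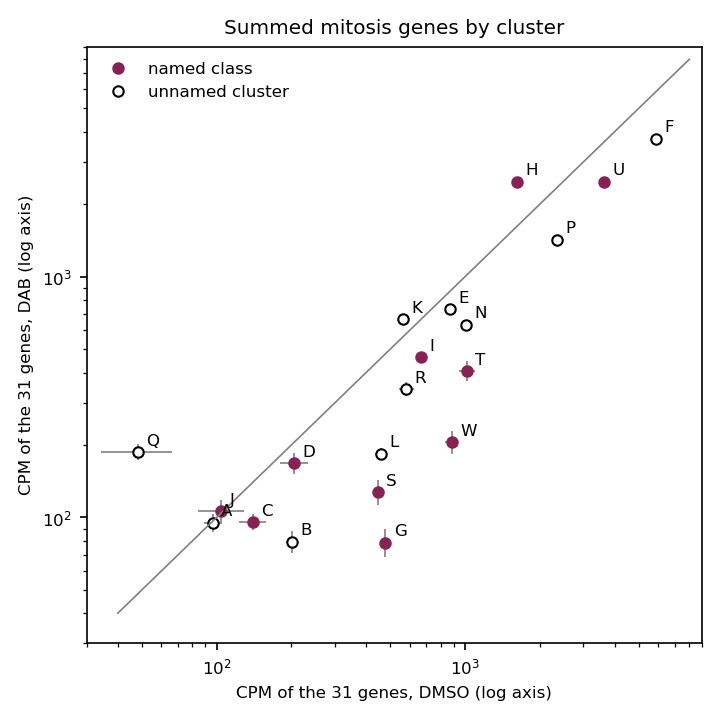
Summed CPM of the 31 mitosis genes in each cluster where both libraries had 100 cells or more, DMSO against DAB on log axes, with 95% Poisson intervals, a line of equality, and letters for the clusters. F, U, H and P lie highest in both libraries, and G, S and W lie furthest below the line.

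The lowest ratios of the named clusters were those of immature monocyte-like, macrophage-like and activated dendritic cell-like cells. Cluster G, immature monocyte-like and led by Slc7a2, Nos2, Mmp12 and Arg1, had 962 DMSO and 180 DAB cells, at nearly equal median depths of 16659.5 and 15367 UMIs. The mitosis genes stood there at 478 CPM in DMSO (468 to 489) and 78.7 CPM in DAB (68.6 to 89.8), a ratio of -2.60 (-2.80 to -2.41). Dividing cells were 60 of 952 in DMSO (6.30%, 4.84 to 8.04) and 0 of 178 in DAB, which by the limit of 3 counts allows a share of up to 1.69% (exact binomial upper bound 2.05%). The DAB level in G was below that of mature PMN-like cells. In G, Ube2c had 69.5 CPM in DMSO and 3.58 in DAB, and Top2a had 29.2 and 4.65. The size of this gap depended on which cells took the name: over 7 settings the ratio of the class ran from -2.60 to -0.24, the smallest without alignment of the libraries.

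Macrophage-like cluster W, led by Pf4 with the complement genes C1qa, C1qb and C1qc, had 139 DMSO and 126 DAB cells and stood at 884 CPM in DMSO (834 to 935) and 206 CPM in DAB (184 to 229), a ratio of -2.10 (-2.28 to -1.93). Its dividing cells were 21 of 134 in DMSO (15.7%, 9.97 to 22.95) and 1 of 121 in DAB (0.826%, 0.0209 to 4.52). Over 7 settings this ratio stayed between -2.30 and -1.40. Activated dendritic cell-like cluster S, led by Ccl22, Ccl17 and Ccr7, had 302 DMSO and 124 DAB cells and stood at 446 CPM in DMSO (429 to 464) and 127 CPM in DAB (113 to 143), with 13 of 297 and 0 of 123 cells dividing, and 0 of 123 allows up to 2.44% by the same limit (exact binomial upper bound 2.95%). Together G, S and W had 94 dividing cells of 1383 in DMSO and 1 of 422 in DAB. Mature monocyte-like cluster I, led by the MHC class II genes H2-Eb1, H2-Ab1 and H2-Aa, had 421 DMSO and 596 DAB cells and stood at 667 CPM in DMSO (649.9 to 685) and 464 CPM in DAB (454 to 474), a ratio of -0.52 (-0.57 to -0.48). The median depth in I was 19568 UMIs in DMSO and 29194 in DAB. Counted per cell the libraries were close, with 13.2 UMIs of the list in DMSO and 13.7 in DAB. Over that cluster 17 of 30 members with at least 50 UMIs were called lower and 1, Aurka (5.87 CPM in DMSO and 8.98 in DAB), higher, where 18.8% of all genes were called lower and 15.1% higher. Without alignment the ratio of this class was 0.25, the opposite direction.

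Other clusters also held parts of the list, and their size differed between the libraries. Cluster E held 2.60% of the UMIs of the list in DMSO, less than H (8.71%) or U (7.14%). In DAB it held 10.9%, more than H (4.50%) or U (4.68%). B cell-like cluster T had 142 DMSO and 188 DAB cells, at 1020.0 CPM in DMSO (946 to 1098) and 406 CPM in DAB (369 to 447). Basophil or mast cell-like cluster X had 70 DMSO and 111 DAB cells, at 2133 CPM in DMSO (2001 to 2271) and 1673 CPM in DAB (1590.0 to 1759), and unnamed cluster N, led by Il2ra, Cpa3 and Cd200r3, had 111 DMSO and 525 DAB cells, at 1011 CPM in DMSO (966 to 1057) and 633 CPM in DAB (619 to 647). Unnamed cluster E, led by the stefin genes Stfa1 and Stfa2, had 224 DMSO and 1032 DAB cells and stood at 873 CPM in DMSO (843 to 905) and 736 CPM in DAB (724 to 747), and it held 2.06% of the dividing DMSO cells and 10.2% of those of DAB. Unnamed cluster P, with median depths of 2523 and 3782 UMIs and led by Gm26917 and Gria3, stood at 2356 CPM in DMSO (2249 to 2467) and 1428 CPM in DAB (1368 to 1489.6).

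When both libraries were given the same cluster makeup, the ratio of the summed genes was -0.55, against -0.36 as measured. With doublets kept and in the other clusterings of the same cells it ran from -0.62 to -0.40, and it was not computed for the clustering without the cell filter. The clusters it weights changed between settings, as given above for intermediate granulocyte-like and mature monocyte-like cells.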

How the data were processed

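Bone marrow MDSC cultures, 1 with dabrafenib and 1 with DMSO, were profiled with the 10x Genomics 5′ v2 kit. The authors aligned reads to mm10 with Cell Ranger 7.0.0, and the deposited values are raw UMI counts per gene and barcode, at least 500 UMIs a barcode, before the authors' cell filters and without cell labels.

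From these counts, barcodes over 10% mitochondrial UMIs were removed, 55 of 9855 in DMSO and 89 of 11631 in DAB. A limit of 4 median absolute deviations in UMIs and genes took 0 more. A simulated-doublet score then removed 768 and 1066, which held 15.2% and 12.6% of the member UMIs. Clusters came from Pearson residuals of 3000 variable genes without the 144 cell cycle genes listed, 40 principal components, mutual nearest neighbours (k = 20) and Leiden at resolution 0.9, with code written in Python 3.11.15 (scipy 1.17.1, igraph 0.11.9, leidenalg 0.10.2) in place of Seurat. A cluster was named by its best list when at least 3 markers, and most of those detected, had a log2 fold of 1 over the other clusters. In addition, no other list could have more markers among the 10 leading genes. Granulocyte lists other than the progenitor one also needed S100a8 or Csf3r to be raised. A cluster of low depth with no own marker among its leading genes stayed unnamed. Cluster A stayed unnamed with 4 of 7 mature PMN markers raised, since 2 of its leading genes came from another list and 1 from this one. Levels carry exact Poisson intervals, shares exact binomial intervals and ratios exact conditional binomial intervals. UMIs of the 5′ end were not divided by gene length. Gene coordinates and lengths are those of GENCODE M21 on GRCm38.

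The genes named were all members, the 10 genes most like them, and list genes past the threshold, at most 6 a list by UMIs. Foxm1, Nfyc, Cdkn1c, Mybl2 and Cdkn1a were named outside this rule, after their values were seen. The members and the lists were chosen with earlier results of these data known. The ratios with their intervals and the thinning were tested on simulated data, while doublet scoring, alignment, clustering and naming were not. Alternatives were no cell filter, doublets kept, median of ratios scaling, a mean over cells, minimums of 200 UMIs or none, thinning to 3000 UMIs or none, 1 or 5 UMIs for a dividing cell, the list without Ube2c, and 5 other clusterings.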

Additional observations from a re-analysis of the deposited data

Results flagged for a closer look

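Among the clusters where both libraries had 100 cells or more, 2 had the summed mitosis genes higher in DAB by at least 0.5 on the log2 scale, while over all cells outside each they were lower. In cluster H, intermediate granulocyte-like, the log2 ratio was 0.62, against -0.37 over all other cells. In unnamed cluster Q, led by Retnlg, Ly6g and Mmp13, with 121 DMSO and 407 DAB cells, the ratio was 1.95 (1.484 to 2.46), against -0.34 over all other cells. Cluster Q was at 48.3 CPM in DMSO, from 38 UMIs, and 187 CPM in DAB, from 753. In Q, 0 of 116 DMSO and 3 of 402 DAB cells had 3 thinned UMIs. Neither difference was tested, with 1 library per condition. A smaller difference in the same direction was seen in unnamed cluster K, with 620 DMSO and 278 DAB cells, at 0.24 (0.17 to 0.32). Unnamed cluster O, led by Chil3, Gal and Trf, fell under the limit of 100 cells, with 529 DMSO and 96 DAB cells. Its ratio was 0.53 (0.33 to 0.72). Of the other clusters under that limit, M, V and X had ratios of -0.91, -1.05 and -0.35, and Y had 1 UMI of the list in DMSO.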

How the results depend on the processing

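Of the values recomputed under other settings, 51 differed from those reported by no more than the counting interval or, for counts of genes, by less than 1.5 times, 51 differed by more in the same direction or without a call, and 3 turned direction. Beside -0.36, the summed ratio was -0.37 with no cell filter, -0.42 with doublets kept, -0.34 by median of ratios, -0.60 as a mean over cells, -0.39 without Ube2c and 0.037 per cell, the scaling per cell chosen after seeing the data. The median ratio was -0.46 with doublets kept and -0.64 over cells. The share of dividing cells was 11.01% in DMSO with doublets kept, 14.4% in DMSO and 10.8% in DAB at 3000 UMIs, 30.5% and 23.3% without thinning, 28.97% and 22.1% for 1 UMI, and 7.97% and 5.73% for 5 UMIs. It was lower in DAB in each.

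By class, mature PMN-like cells gave 0.038 with doublets kept, -0.017 as a mean over cells, -0.79 at resolution 0.5, -1.18 without alignment and -0.52 with cell cycle regressed out. Chemokine-high granulocyte-like cells gave -1.10 with no cell filter, -0.53 as a mean over cells, -1.24 at resolution 1.5, -1.62 without alignment and -2.65 with cell cycle regressed out. Mature monocyte-like cells gave -0.62 with no cell filter, -0.45 at resolution 0.5, 0.25 without alignment, -0.22 with cell cycle regressed out and -0.62 when genes that differ between libraries were left out. Intermediate granulocyte-like cells turned from 0.62 to -0.049 with no cell filter and -0.42 when those genes were left out. At equal cluster makeup the ratio was -0.62 with doublets kept, -0.40 without alignment, -0.41 with cell cycle regressed out and -0.60 without those genes. The values with cell cycle regressed out are not an independent check, since the scores drew on the mitosis genes themselves. The causes were not tested. No paired analysis was possible because each condition had 1 library, which also leaves every difference between DAB and DMSO inseparable from a difference between these 2 libraries. Few UMIs limited members such as Ttk, and few cells limited the DAB counts in clusters G and S.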
